A study of Mus musculus with 10 samples.

Results

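Ureteric bud (UB) organoids of the mouse were compared after 20 and after 10 days of culture, over the autosomal genes. Of the 39273 genes in the count table, 37710 lie on an autosome, and the 19598 of these with at least 10 counts over the 4 libraries are described. Each day had 2 libraries. Both days carried the label of a *Wnt11*-RFP +/- genotype on a C57BL/6 x Swiss Webster background, in which a red fluorescent protein is placed under *Wnt11* control to mark UB tips. Both began from UB epithelium of embryonic kidneys, for which the labels give Embryonic day 11 and E11.5. At either day the organoids had been kept in Matrigel in the same UB culture medium and passaged, so that days 10 and 20 differ in time in culture and in nothing else that the labels name. Day 5 organoids, collecting duct (CD) organoids and adult CD samples (2 libraries each) entered the same fit. They help to set the spread behind every p-value, and their levels are given only as reference. The labels call the adult samples organoids, whereas the study's methods describe them as sorted *Hoxb7*-Venus cells of adult kidneys. The labels do not say whether the 2 libraries of a day came from separate cultures or embryos. The p-values rest on the spread between the 2 libraries of a group, pooled over all 10 libraries, and this spread may be technical.

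The UB is the epithelial outgrowth that branches into the collecting duct system of the kidney. Its tips hold the progenitor cells, which express the GDNF receptor *Ret* and its target *Etv5* and are kept dividing by GDNF and FGF signals, while cells left behind in the trunk go on to form the CD. The culture medium carries GDNF and FGF9, the GSK3 inhibitor CHIR99021 and R-spondin 1, which raise beta-catenin, the retinoic acid receptor agonist TTNPB, the BMP receptor inhibitor LDN193189, the TGF-beta receptor inhibitor A83-01, the p38 inhibitor SB202190 and a JAK inhibitor. The question put to the data is which genes differ between day 20 and day 10 in this medium.

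The 2 day 20 libraries were shallower, with 14953162 and 14100815 counts against 22858971 and 24536676 at day 10. Levels are given as CPM, counts per 1000000 of the library's TMM-scaled total, a scale that does not correct for gene length and serves to compare libraries, not genes. A floor of 3 counts, which covers counting error only, stood at 0.182 and 0.198 CPM at day 20 and at 0.119 and 0.109 CPM at day 10. Mitochondrial counts were 3.1% and 3.4% of the total at day 20 and 1.28% and 1.58% at day 10. RNA of 4 Y-linked genes summed to 229.8 and 259.3 CPM at day 20 and to 0.317 and 0.875 CPM at day 10. *Xist* RNA, which only cells with a second X chromosome keep on, stood at 358 and 199.9 CPM at day 20 and at 2282 and 1966 CPM at day 10. The sex of the starting embryos and the time in culture cannot be told apart. Nor can other differences between the embryos of the 2 days, or any batch, be told apart from time. Only autosomal genes are described, and these limits hold for them too. Among the 10697 genes with a mean of at least 5 CPM, the median absolute log2 difference was 0.133 between the 2 day 10 libraries, 0.0725 between the 2 day 20 libraries and 0.256 between the means of the days.

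Genes were called where the adjusted p of edgeR's quasi-likelihood test (Benjamini-Hochberg, over 24410 genes) did not exceed 0.01 and the change was over 4-fold. By this rule 383 genes (1.95%) were higher and 408 genes (2.08%) were lower at day 20. By a looser rule, which takes an adjusted p up to 0.05 whatever the fold, 3019 genes (15.4%) were higher and 3756 (19.2%) lower. The call rule itself makes overlap of the 2 days unlikely, and none of the 791 called genes had overlapping levels. In 84 of those higher and 111 of those lower, the libraries of one day were all at or under 3 counts, so their folds are lower bounds. The median log2 fold change over all 19598 genes was -0.09. Of the called genes, 257 higher and 270 lower ones were protein-coding and 20 and 25 were lincRNAs. The number of lower genes, 408 with all libraries, was 224 without day 20 replicate 1 and 277 without day 10 replicate 1. The number of higher genes lay between 276 and 460 with 1 of the 4 libraries left out.

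**Figure D1:**
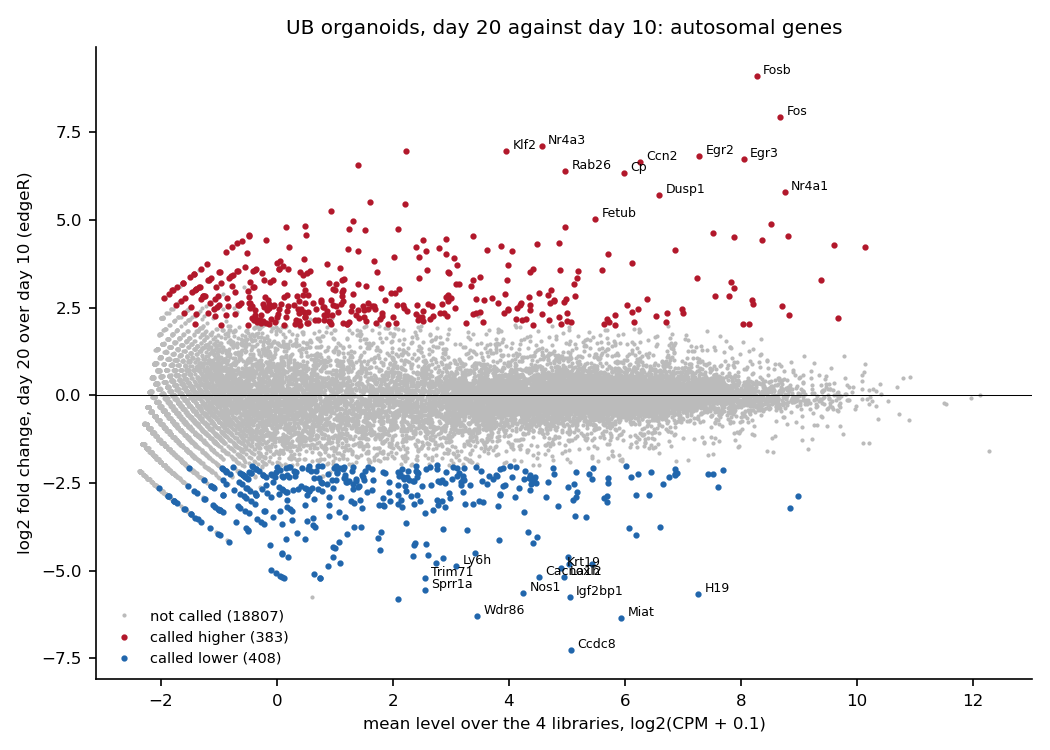
Log2 fold change of day 20 over day 10 against the mean level over the 4 libraries, in log2(CPM + 0.1), with 1 point for each of the 19598 autosomal genes. The 383 genes called higher are red, the 408 called lower blue, and the 12 abundant genes with the largest change in each direction are named; *Fosb* and *Fos* lie highest and *Ccdc8* lowest.

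Immediate early genes had the largest median change of the gene lists examined. These genes are switched on within minutes of a growth factor or stress signal without new protein synthesis. Most encode transcription factors, such as the AP-1 subunits of the FOS and JUN families, the EGR zinc finger proteins and the NR4A nuclear receptors, or feedback inhibitors such as the phosphatase DUSP1. All 25 genes of the list were measured; 22 were called higher and all 25 were higher by the looser rule, against 1.95% and 15.4% of all genes described. Their median log2 fold change was 4.52. With 1 of the 4 libraries left out in turn, 22 were called higher each time.

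*Fosb* (chromosome 7, 19302696 to 19310051, positions of mouse genome build GRCm38 here and below) stood at 1.15 and 0.984 CPM at day 10 and 509 and 727 CPM at day 20 (log2 fold change 9.11, SE 0.406, adjusted p = 5.71e-09). Both day 20 libraries were far above both day 10 libraries, and day 5 was as low as day 10, at 0.598 and 1.1 CPM. *Fos* (chromosome 12, 85473890 to 85477273) stood at 3.41 and 3.21 CPM at day 10 and 707 and 932 CPM at day 20 (log2 fold change 7.93, SE 0.23, adjusted p = 1.32e-10), again with low values at day 5. *Egr1* stood at 107 and 122 CPM at day 10 and 1949 and 2348 CPM at day 20 (log2 fold change 4.22, SE 0.212, adjusted p = 1.72e-08). Here the day 10 level was itself well above the floor. The other EGR genes were nearly silent before day 20. *Egr2* stood at 2.54 and 2.77 CPM at day 10 and 269 and 347 CPM at day 20 (log2 fold change 6.83, SE 0.183, adjusted p = 6.05e-11). *Egr3* stood at 2.1 and 7.44 CPM at day 10 and 466 and 584 CPM at day 20 (log2 fold change 6.75, SE 0.325, adjusted p = 1.24e-08). *Egr4* did not exceed 3 counts in either day 10 library and rose at least 76.8-fold.

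The NR4A receptors moved with them. *Nr4a1* (chromosome 15, 101254269 to 101274795) stood at 14.8 and 15.7 CPM at day 10 and 811 and 890.4 CPM at day 20 (log2 fold change 5.80, SE 0.0991, adjusted p = 1.23e-12), which is the smallest adjusted p of the list. *Nr4a3* stood at 0.277 and 0.292 CPM at day 10 and 42 and 51.8 CPM at day 20 (log2 fold change 7.11, SE 0.232, adjusted p = 3.28e-10). Of the AP-1 partners, *Jun* (chromosome 4, 95049034 to 95052222) stood at 129.7 and 121 CPM at day 10 and 1087 and 1349 CPM at day 20 (log2 fold change 3.28, SE 0.102, adjusted p = 2.31e-10). It was already abundant at day 10 and higher in both day 20 libraries. *Atf3* (4.52), *Klf6* (4.55), *Klf2* (6.98), *Btg2* (4.89), the mRNA-destabilising *Zfp36* (4.62), *Dusp1* (5.70) and *Arc* (3.05) rose as well, with log2 fold changes as given in the brackets. The 3 genes of the list that changed by less than 4-fold were *Ier3* (1.37), *Myc* (1.19) and *Gadd45b* (0.92). *Gadd45b*, with the smallest change, stood at 30.2 and 16.8 CPM at day 10 and 37.9 and 50.8 CPM at day 20, and both days were below day 5, at 54 and 65.7 CPM. It lost its call by the looser rule without day 20 replicate 2 (log2 fold change 0.69, adjusted p = 0.0786). In 24 of the 25 genes, *Fosl1* being the exception, the second day 20 library was above the first.

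**Figure D2:**
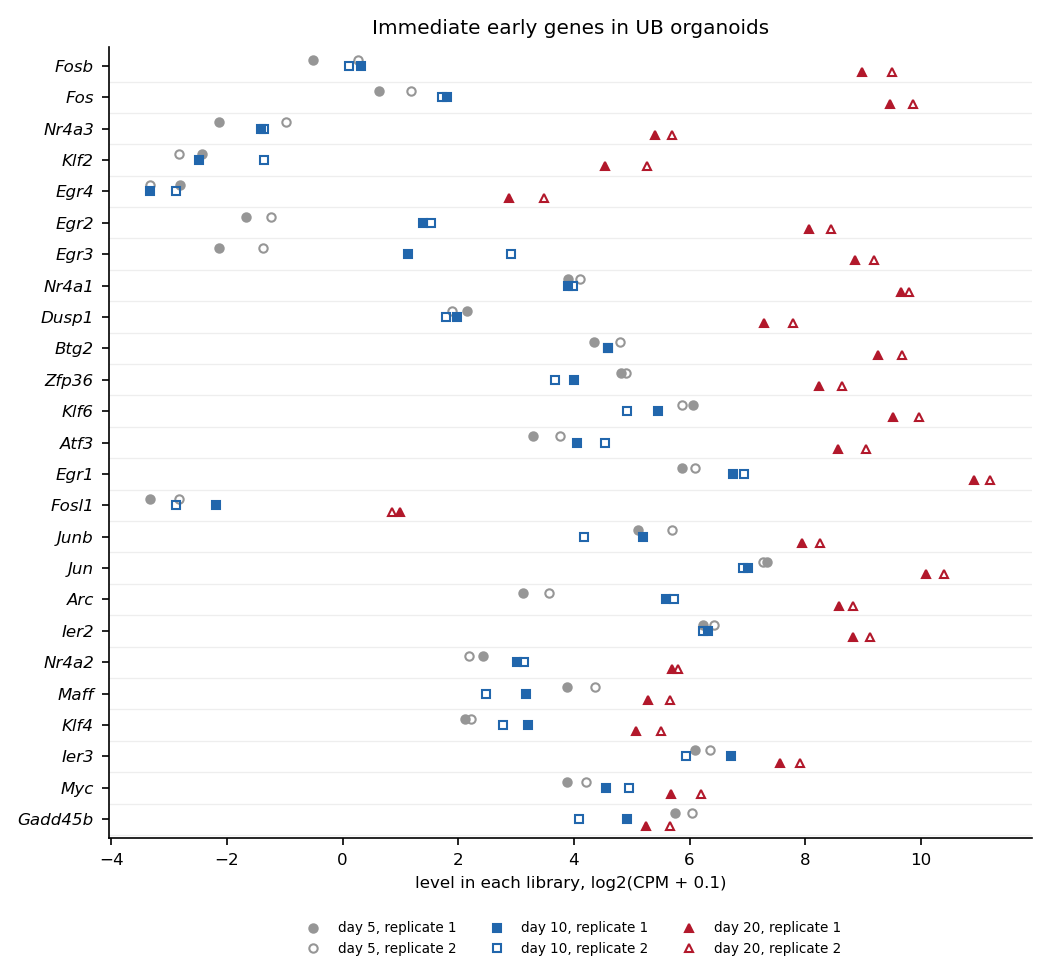
Level of the 25 immediate early genes in each library of day 5 (grey circles), day 10 (blue squares) and day 20 (red triangles), in log2(CPM + 0.1), with the first replicate filled and the second open. For 24 of the 25 genes both day 20 libraries lie above all 4 others, the exception being *Gadd45b*.

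Promoters are shown for *Jun*, *Klf6*, *Nr4a1* and *Fos*, the called members with the highest CPM at day 20 after *Egr1*, to give the letters around their start sites. They are RefSeq promoters of GRCm38.p6, from 250 bases before to 50 bases after the start, and RefSeq gave one for 19 of the 25 genes. Capitals mark TGACG or its reverse complement CGTCA, the core of the cAMP response element through which CREB and ATF proteins are known to act. They also mark TGACATCA on either strand, a known AP-1 and ATF site of the *Jun* promoter that was added to the search after the sequences were seen. No CArG box, the site of serum response factor, and no AP-1 site of the form TGANTCA lay in these 4 windows. Bases farther upstream were not searched, so sites there are not excluded. The *Jun* window is chr4:95052173-95052472 on the minus strand and that of *Klf6* chr13:5861239-5861538 on the plus strand. The window of *Nr4a1* is chr15:101266596-101266895 on the plus strand and that of *Fos* chr12:85473640-85473939 on the plus strand.
Jun: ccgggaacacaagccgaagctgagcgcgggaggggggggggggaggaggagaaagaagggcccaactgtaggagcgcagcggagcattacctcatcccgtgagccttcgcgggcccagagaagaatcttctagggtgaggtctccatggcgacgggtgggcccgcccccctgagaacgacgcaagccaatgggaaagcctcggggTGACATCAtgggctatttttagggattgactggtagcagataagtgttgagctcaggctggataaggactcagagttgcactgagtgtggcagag
Klf6: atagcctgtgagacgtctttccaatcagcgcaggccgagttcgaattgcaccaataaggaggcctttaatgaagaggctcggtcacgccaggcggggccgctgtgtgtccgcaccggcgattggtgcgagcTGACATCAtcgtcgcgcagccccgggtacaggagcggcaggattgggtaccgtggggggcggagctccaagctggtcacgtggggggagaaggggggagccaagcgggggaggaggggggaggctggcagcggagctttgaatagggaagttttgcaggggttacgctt
Nr4a1: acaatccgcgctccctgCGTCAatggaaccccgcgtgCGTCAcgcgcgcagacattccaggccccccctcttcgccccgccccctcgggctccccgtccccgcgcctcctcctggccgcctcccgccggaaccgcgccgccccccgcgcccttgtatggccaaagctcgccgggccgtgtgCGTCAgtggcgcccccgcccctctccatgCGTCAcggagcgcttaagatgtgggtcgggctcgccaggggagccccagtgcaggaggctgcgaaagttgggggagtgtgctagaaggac
Fos: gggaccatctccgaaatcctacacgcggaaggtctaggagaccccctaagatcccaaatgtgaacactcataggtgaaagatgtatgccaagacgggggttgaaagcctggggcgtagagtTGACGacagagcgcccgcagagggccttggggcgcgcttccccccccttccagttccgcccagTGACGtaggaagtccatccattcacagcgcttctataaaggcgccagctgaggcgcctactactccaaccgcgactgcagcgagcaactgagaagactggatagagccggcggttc

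*Nr4a1* held 4 copies of the core, which begin 233, 213, 69 and 40 bases before the start, and *Fos* held 2, which begin 129 and 66 bases before it. *Jun* and *Klf6* held none, but each held 1 TGACATCA, beginning 45 and 119 bases before the start. Over the first listed start of each gene, the core lay in 12 of the 19 immediate early promoters (63.2%), in 29.3% of the promoters of the genes described and in 21% of all 27025 promoters. TGACATCA lay in 2 of the 19, in 1.80% of the genes described and in 3.76% of all. A CArG box lay in 1 of the 19 (5.26%), in 1.29% of the genes described and in 1.57% of all. TGANTCA lay in 0 of the 19, in 5.29% of the genes described and in 7.93% of all. These are matches of letters, and no binding was measured.

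Of the 12 abundant genes with the largest rise, 8 belong to the immediate early list. *Ccn2*, a matricellular protein known as a target of TGF-beta and YAP, stood at 1.43 and 1.49 CPM at day 10 and 132 and 171 CPM at day 20 (log2 fold change 6.64, SE 0.197, adjusted p = 1.43e-10). *Rab26*, a small GTPase of secretory vesicles, stood at 0.714 and 0.656 CPM at day 10 and 61.5 and 62.1 CPM at day 20 (log2 fold change 6.39, SE 0.22, adjusted p = 5.43e-10), and both values at day 5 were under 1 CPM. *Cp* encodes the plasma ferroxidase ceruloplasmin and stood at 0.555 and 2.41 CPM at day 10 and 122 and 129.7 CPM at day 20 (log2 fold change 6.33, SE 0.269, adjusted p = 3.73e-09). CD organoids held more of it, at 441 and 539 CPM. *Fetub*, a secreted protease inhibitor, stood at 1.15 and 4.01 CPM at day 10 and 84.5 and 89.5 CPM at day 20 (log2 fold change 5.03, SE 0.305, adjusted p = 1.04e-07). In all 4 genes the days were far apart, and in *Cp* and *Fetub* day 10 replicate 2 was already above replicate 1 and nearer to day 20.

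Feedback genes of receptor tyrosine kinase and ERK signalling, which GDNF and FGF9 are known to induce, held fewer large changes. Of 15 measured, 2 were called higher (13.3% against 1.95% of all genes described). By the looser rule 10 were higher (66.7% against 15.4%) and 1 was lower (6.67% against 19.2%), and the median log2 fold change was 0.89. *Dusp5*, a nuclear ERK phosphatase, stood at 6.5 and 5.43 CPM at day 10 and 87.1 and 109 CPM at day 20 (log2 fold change 4.03, SE 0.149, adjusted p = 1.03e-09). *Spry1*, an inhibitor of RET signalling, stood at 104 and 104 CPM at day 10 and 396 and 451 CPM at day 20 (log2 fold change 2.02, SE 0.0879, adjusted p = 4.60e-09). *Etv1* (1.46), *Ccnd1* (1.16), *Spry2* (0.98), *Spred1* (0.96) and *Dusp4* (0.89) rose by the looser rule. Without day 20 replicate 2, *Spry1* changed by less than 4-fold (log2 fold change 1.93). *Dusp6* (log2 fold change 0.12, adjusted p = 0.441; adjusted p = 0.00778 without day 10 replicate 2) and *Etv4* (log2 fold change -0.11, adjusted p = 0.576) did not pass either rule. The antagonist *Il17rd* was lower (log2 fold change -0.82, adjusted p = 5.24e-06).

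Of 15 measured genes of NF-kB signalling and inflammation, 4 were called higher (26.7% against 1.95% of all genes described). By the looser rule 11 were higher (73.3% against 15.4%). *Ptgs2*, the inducible cyclooxygenase, stood at 2.3 and 1.9 CPM at day 10 and 41.1 and 44.1 CPM at day 20 (log2 fold change 4.31, SE 0.164, adjusted p = 1.19e-09). The chemokine gene *Cxcl1* stood at 1.03 and 1.46 CPM at day 10 and 19.1 and 27.2 CPM at day 20 (log2 fold change 4.15, SE 0.22, adjusted p = 2.92e-08). *Lcn2*, a siderophore-binding protein of injured tubules, stood at 122 and 187 CPM at day 10 and 759.5 and 747 CPM at day 20 (log2 fold change 2.28, SE 0.241, adjusted p = 1.35e-05). *Tnf* was called at a low level, 0.436 and 0.401 CPM at day 10 and 2.31 and 2.84 CPM at day 20. *Il1b*, *Il6* and *Ccl2* did not reach 10 counts over the 4 libraries. *Icam1* was lower by the looser rule (log2 fold change -1.56, adjusted p = 0.0348), but not without day 10 replicate 1 (adjusted p = 0.324), day 20 replicate 1 (adjusted p = 0.242) or day 20 replicate 2 (adjusted p = 0.0801).

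Of 19 measured p53 targets and CDK inhibitors, 4 were called higher (21.1% against 1.95% of all genes described) and 1 lower (5.26% against 2.08%). By the looser rule 13 were higher (68.4% against 15.4%), and the median log2 fold change was 1.37. *Cdkn2a*, which encodes the p16 and p19 proteins of the senescence checkpoint, stood at 2.42 and 9.19 CPM at day 10 and 45.1 and 49 CPM at day 20 (log2 fold change 3.0, SE 0.393, adjusted p = 8.51e-05). At day 5 it was at or near 0. *Gdf15* (log2 fold change 3.60, SE 0.184, adjusted p = 2.19e-08), *Trp53inp1* (log2 fold change 2.35, SE 0.176, adjusted p = 7.35e-07) and *Ccng1* (log2 fold change 2.03, SE 0.108, adjusted p = 3.14e-08) were called. *Mdm2*, which encodes the p53 ubiquitin ligase, stood at 67.4 and 68.8 CPM at day 10 and 141 and 147 CPM at day 20 (log2 fold change 1.08, adjusted p = 4.26e-07). *Cdkn1a*, the best known p53 target, did not pass either rule, with 250.5 and 172 CPM at day 10 and 234 and 267 CPM at day 20 (log2 fold change 0.24, adjusted p = 0.223). Without day 10 replicate 1 it passed the looser rule (log2 fold change 0.56, adjusted p = 3.57e-04), and *Ccng1* changed by less than 4-fold (log2 fold change 1.89), as it did without day 20 replicate 2 (log2 fold change 2.00). *Cdkn1c*, an imprinted CDK inhibitor, was called lower.

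Notch genes held 3 calls among 12 measured (25% against 1.95%), all of them higher and all of them targets. By the looser rule 6 were higher (50% against 15.4%) and 2 lower (16.7% against 19.2%). *Hes1* (chromosome 16, 30064384 to 30067796) stood at 29.3 and 28.6 CPM at day 10 and 571 and 689 CPM at day 20 (log2 fold change 4.44, SE 0.168, adjusted p = 1.19e-09). *Hey1* stood at 3.01 and 1.97 CPM at day 10 and 13.9 and 14.2 CPM at day 20 (log2 fold change 2.48, SE 0.218, adjusted p = 2.97e-06). *Hey2* stood at 0.991 and 0.62 CPM at day 10 and 3.82 and 4.49 CPM at day 20. The receptor *Notch1* rose by the looser rule (log2 fold change 1.06, adjusted p = 6.29e-07), the ligand *Jag2* fell (log2 fold change -1.03, adjusted p = 0.00178), and 4 of the 12 passed neither rule.

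**Figure D3:**
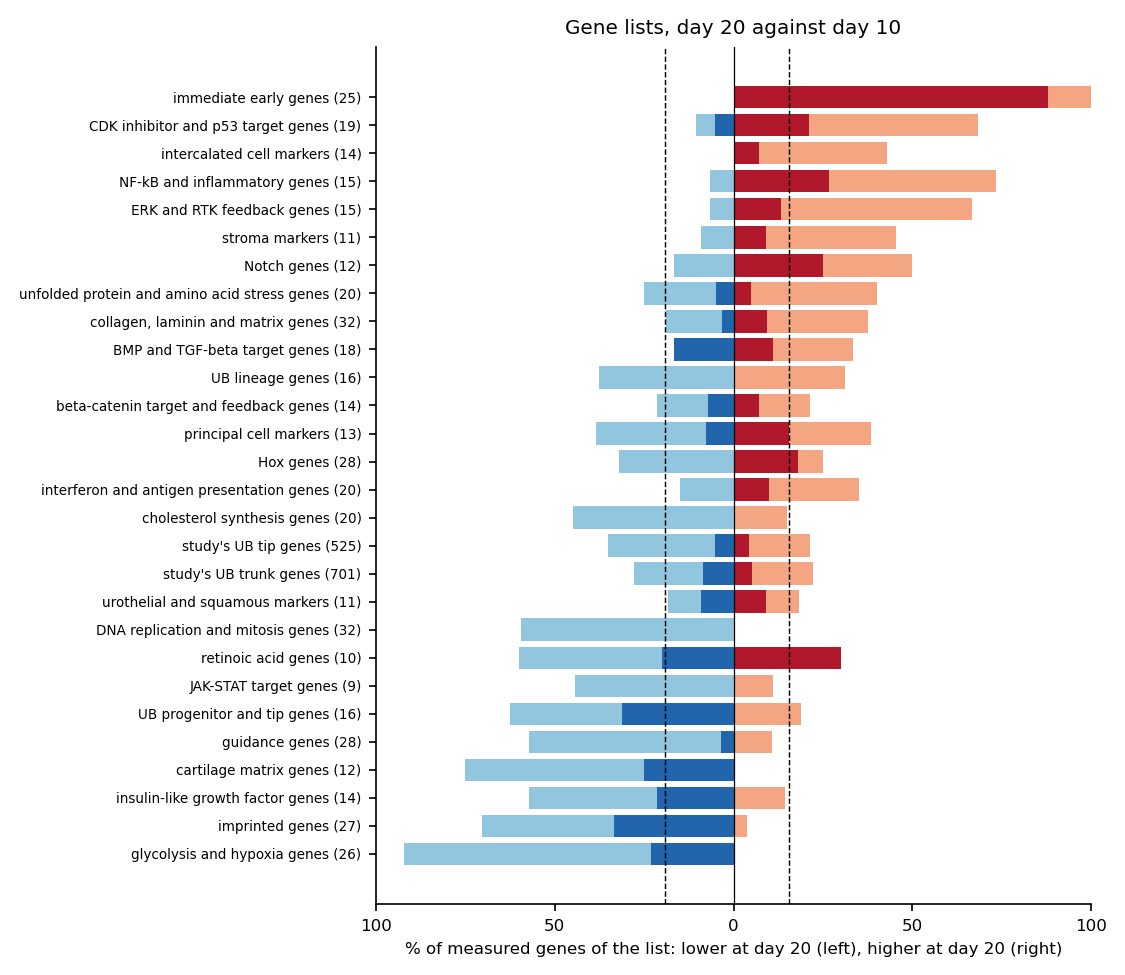
Share of the measured genes of each list that were higher (right) or lower (left) at day 20, dark for the call at more than 4-fold and pale for the looser rule, with the number measured in brackets and lists ordered by their median log2 fold change. The dashed lines mark the shares over all genes described, 15.4% higher and 19.2% lower; lists with fewer than 9 measured genes are not drawn.

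Among the genes that fell, *Ccdc8*, a subunit of the 3M ubiquitin ligase complex whose loss causes a human growth disorder, changed most. It stood at 99.4 and 34.7 CPM at day 10 and 0.182 and 0.595 CPM at day 20 (log2 fold change -7.27, SE 0.602, adjusted p = 1.73e-06), and day 20 replicate 1 was at the floor. The long noncoding RNA *Miat* stood at 168 and 73.9 CPM at day 10 and 1.21 and 1.65 CPM at day 20 (log2 fold change -6.35, SE 0.455, adjusted p = 4.96e-07). Day 5 was low as well, at 8.07 and 13.5 CPM, so *Miat* was high at day 10 alone of the 3 days. *Wdr86* stood at 26.7 and 16.4 CPM at day 10 and 0.182 and 0.264 CPM at day 20 (log2 fold change -6.29, SE 0.377, adjusted p = 9.29e-08). *Nos1*, the neuronal nitric oxide synthase, stood at 41.5 and 32.9 CPM at day 10 and 0.546 and 0.859 CPM at day 20 (log2 fold change -5.63, SE 0.29, adjusted p = 2.26e-08). *Sprr1a*, a precursor of the cornified envelope, was another gene of day 10, with 11.2 and 11.4 CPM at day 10 and 0.121 and 0.264 CPM at day 20 (log2 fold change -5.54, SE 0.425, adjusted p = 8.97e-07). Day 5 held 0.128 and 0.367 CPM.

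*Krt19*, a keratin of duct epithelium, stood at 81.3 and 33.6 CPM at day 10 and 0.789 and 2.97 CPM at day 20 (log2 fold change -4.92, SE 0.465, adjusted p = 5.30e-06), below CD organoids, which held 334 and 347 CPM. *Loxl2*, a collagen cross-linking enzyme, stood at 93.5 and 26.2 CPM at day 10 and 0.91 and 2.31 CPM at day 20 (log2 fold change -5.19, SE 0.579, adjusted p = 2.15e-05). *Cacna1h*, a T-type calcium channel, stood at 70 and 18.8 CPM at day 10 and 0.789 and 1.59 CPM at day 20 (log2 fold change -5.18, SE 0.617, adjusted p = 3.89e-05). *Ly6h* (-4.87) completed the 12 with *Igf2bp1*, *H19* and *Trim71*. The rule that chose these 12 required both day 20 libraries to lie under both day 10 libraries. The day 10 libraries were themselves apart. Of the 148 called lower genes with at least 5 CPM on average, 139 were lower in replicate 2 than in replicate 1, by a median of -0.64 on the log2 scale, so that replicate 2 lay nearer to day 20. Of the 143 abundant genes called higher, 96 lay nearer to day 20 in replicate 2. In 103 of the 148, day 5 was higher than day 10 on average.

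**Figure D4:**
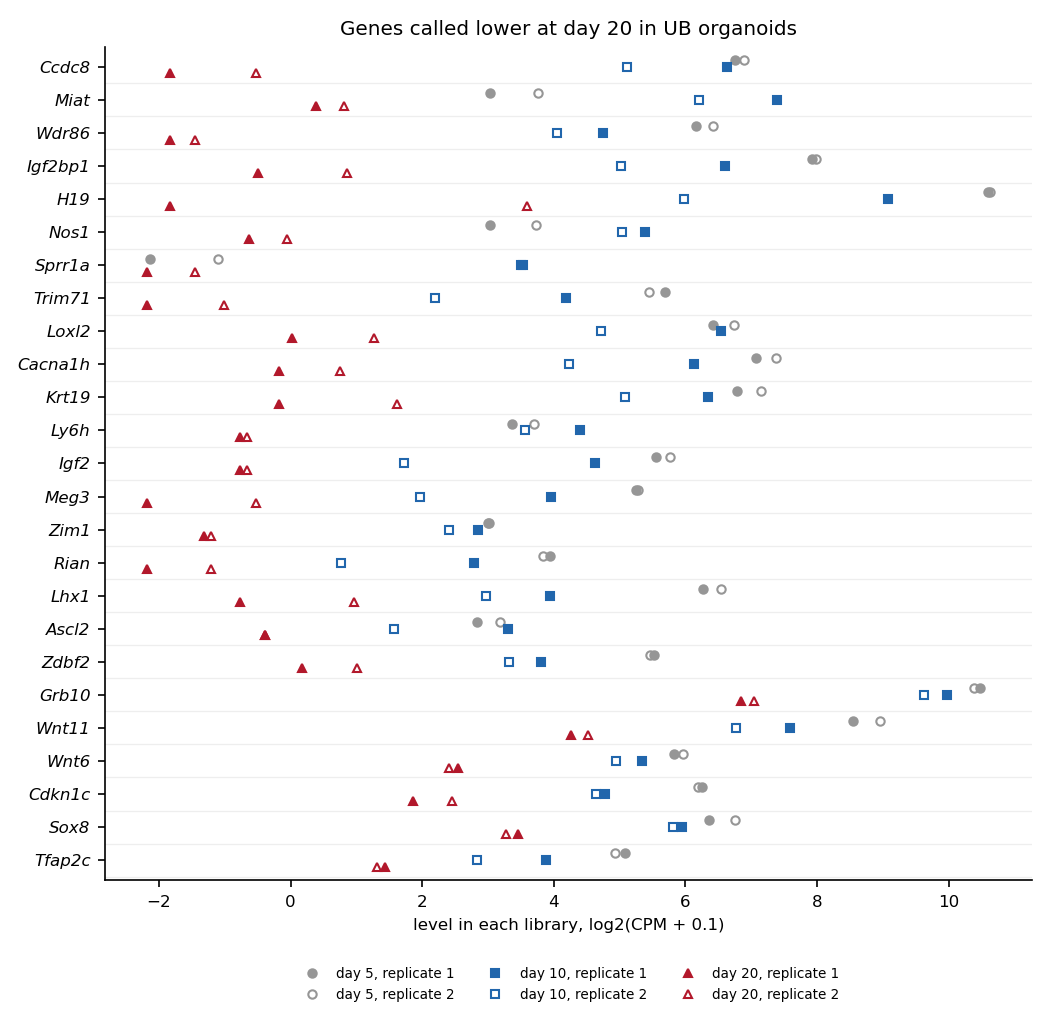
Level of 25 genes called lower at day 20 in each library of day 5 (grey circles), day 10 (blue squares) and day 20 (red triangles), in log2(CPM + 0.1), with the first replicate filled and the second open: the 12 abundant genes with the largest fall, and the called imprinted and UB tip genes. Day 20 lies below day 10 in all of them, as their selection required, and the 2 day 10 libraries of *H19* are apart by more than 3 log2 units.

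Imprinted genes, which are transcribed from the allele of 1 parent and many of which set fetal growth, held calls in the lower direction. Of 27 measured, 9 were called lower (33.3% against 2.08%) and none higher, and 19 were lower by the looser rule (70.4% against 19.2%), with a median log2 fold change of -1.22. *H19* (chromosome 7, 142575529 to 142578143), a maternally expressed noncoding RNA, stood at 542 and 62.9 CPM at day 10 and 0.182 and 12 CPM at day 20 (log2 fold change -5.66, SE 0.97, adjusted p = 6.77e-04). Day 5 held 1549.8 and 1582 CPM. Its paternally expressed neighbour *Igf2* (chromosome 7, 142650766 to 142666816), a fetal growth factor, stood at 24.7 and 3.21 CPM at day 10 and 0.485 and 0.529 CPM at day 20 (log2 fold change -4.63, SE 0.88, adjusted p = 0.00143). *Grb10*, an adaptor that restrains insulin receptor signalling, stood at 1006 and 789 CPM at day 10 and 115 and 132 CPM at day 20 (log2 fold change -2.86, SE 0.111, adjusted p = 1.45e-09). The noncoding *Meg3* (log2 fold change -4.58, SE 0.711, adjusted p = 3.24e-04) and *Rian* (log2 fold change -3.94, SE 0.692, adjusted p = 8.11e-04) of the Dlk1 cluster were called as well. So were the zinc finger genes *Zim1* (log2 fold change -4.07, SE 0.322, adjusted p = 1.19e-06) and *Zdbf2* (log2 fold change -2.97, SE 0.245, adjusted p = 1.66e-06). *Ascl2* (log2 fold change -3.15, SE 0.549, adjusted p = 7.73e-04) and *Cdkn1c* (log2 fold change -2.55, SE 0.185, adjusted p = 5.38e-07) were the last of the 9.

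Both parental origins were among them, since *Igf2* and *Zdbf2* are known as paternally expressed and *H19*, *Meg3*, *Rian*, *Cdkn1c* and *Ascl2* as maternally expressed. *Peg3* (log2 fold change -1.48, adjusted p = 5.62e-08) and *Nnat* (log2 fold change -1.22, adjusted p = 1.30e-06) fell by the looser rule. *Snrpn* (log2 fold change 0.22, adjusted p = 0.28) was among the 7 that passed neither rule, and *Impact* rose (log2 fold change 1.40, adjusted p = 1.14e-06). Fitted with the 4 libraries alone, 4 imprinted genes were called lower, and with the 6 UB libraries 6. The calls lost with the 4 libraries were *H19* (adjusted p = 0.0283), *Igf2* (0.0278), *Rian* (0.0225), *Ascl2* (0.0187) and *Meg3* (0.015). The count of called imprinted genes was 4 without day 20 replicate 1, 7 without day 20 replicate 2 and 9 or 10 without 1 of the day 10 libraries. Without day 20 replicate 1 the calls lost were those of *H19* (adjusted p = 0.0105), *Meg3* (adjusted p = 0.0101), *Ascl2* (adjusted p = 0.0153), *Rian* (adjusted p = 0.0199) and *Igf2* (adjusted p = 0.0251). Without day 20 replicate 2 they were those of *Ascl2* (adjusted p = 0.0143) and *Igf2* (adjusted p = 0.0217).

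Genes of the insulin-like growth factor system and its RNA-binding proteins held 3 calls among 14 measured, all lower and *Igf2* among them. These were 21.4% of the list, against 2.08% of all genes described. By the looser rule 8 were lower (57.1% against 19.2%). *Igf2bp1* (chromosome 11, 95957163 to 96005940), an oncofetal RNA-binding protein, stood at 97.3 and 32.3 CPM at day 10 and 0.607 and 1.72 CPM at day 20 (log2 fold change -5.76, SE 0.545, adjusted p = 5.34e-06). Its relative *Igf2bp3* stood at 50.6 and 37 CPM at day 10 and 5.89 and 5.68 CPM at day 20 (log2 fold change -2.91, SE 0.16, adjusted p = 4.21e-08). *Igf2bp2* (log2 fold change -1.83, adjusted p = 2.33e-08), *Lin28b*, which blocks let-7 maturation (log2 fold change -1.44, adjusted p = 0.00166), *Hmga2*, an architectural chromatin protein (log2 fold change -1.09, adjusted p = 3.60e-05), and *Igfbp2* (log2 fold change -1.22, adjusted p = 3.99e-04) fell by less than 4-fold. *Igf1r* was higher (log2 fold change 0.57, adjusted p = 3.96e-04). Outside the list, *Trim71* (chromosome 9, 114507133 to 114564369), the mouse counterpart of the worm heterochronic gene lin-41, stood at 18.1 and 4.48 CPM at day 10 and 0.121 and 0.397 CPM at day 20 (log2 fold change -5.20, SE 0.76, adjusted p = 2.03e-04).

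*Igf2bp1*, *Lin28b*, *Hmga2* and *Trim71* are textbook targets of the let-7 miRNAs, which were not measured in these libraries. The sequences show the seed match in each gene, and whether let-7 acts on them here was not tested. Capitals mark the let-7 seed, bases 2 to 8, and its complement CTACCTC in the first matching site of the longest 3′ UTR of each gene (GENCODE M21, GRCm38, minus strand in all 4). The sites are chr11:95961779-95961785 for *Igf2bp1*, chr10:45381023-45381029 for *Lin28b*, chr10:120364225-120364231 for *Hmga2* and chr9:114512473-114512479 for *Trim71*. The 4 genes were chosen after their values were seen.
let-7a: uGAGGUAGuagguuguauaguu
Igf2bp1: gcgaagtaaaCTACCTCaaggt
Lin28b: ggcgggaagtCTACCTCatgca
Hmga2: cattcaatttCTACCTCagcat
Trim71: tgcctaagtcCTACCTCagctt

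Each of these 4 UTRs held 4 copies of CTACCTC, and only 22 of the 12350 described protein-coding genes with a 3′ UTR held 3 or more. Beside the 4 genes shown, the other 18 of these 22 held 5 lower and 4 higher genes by the looser rule. *Nr6a1*, with the most copies (8), passed the looser rule narrowly (log2 fold change 0.30, adjusted p = 0.0301). It did not pass without day 10 replicate 1 (adjusted p = 0.0883), day 20 replicate 1 (adjusted p = 0.142) or day 20 replicate 2 (adjusted p = 0.0883). At least 1 copy lay in 14.9% of the genes called lower, 8.95% of those called higher and 10.8% of all, and by the looser rule in 11.8% of the lower and 10.9% of the higher genes. The first 3 sets had median UTR lengths of 1106, 1106 and 1218 bases, and the set called lower includes *Igf2bp1* and *Trim71*.

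Genes of glycolysis and the hypoxia response had the largest share of lower genes of the lists by the looser rule, but not by the call at more than 4-fold. Of 26 measured, 6 were called lower (23.1% against 2.08% of all genes described). By the looser rule 24 were lower (92.3% against 19.2%) and none was higher, with a median log2 fold change of -1.35. The glucose transporter *Slc2a3* (chromosome 6, 122727809 to 122801640) stood at 63 and 12 CPM at day 10 and 1.82 and 3.11 CPM at day 20 (log2 fold change -3.91, SE 0.666, adjusted p = 6.53e-04). Day 5 held 548 and 573 CPM. *Pfkp*, a phosphofructokinase isoform, stood at 135 and 45.6 CPM at day 10 and 10.7 and 14.1 CPM at day 20 (log2 fold change -2.86, SE 0.389, adjusted p = 1.15e-04). *Ddit4*, an mTORC1 inhibitor induced by low oxygen, stood at 419.8 and 253 CPM at day 10 and 53.3 and 57.5 CPM at day 20 (log2 fold change -2.60, SE 0.182, adjusted p = 4.19e-07). The lactate exporter *Slc16a3* stood at 212 and 149 CPM at day 10 and 26.6 and 45.1 CPM at day 20 (log2 fold change -2.33, SE 0.214, adjusted p = 4.16e-06). *Adm* (-3.17) and *Ankrd37* (-2.51), both known HIF targets, were the other called genes. Fitted with the 4 libraries alone, 3 genes of the list were called lower, and with the 6 UB libraries 5. Without day 20 replicate 1 the calls of *Slc2a3* (adjusted p = 0.0167), *Adm* (adjusted p = 0.0217) and *Slc16a3* (log2 fold change -1.97) were lost. *Pfkp* (log2 fold change -1.85) and *Adm* (log2 fold change -1.87) fell by less than 4-fold without day 10 replicate 1.

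A further 3 glycolytic enzymes fell by less than 4-fold. *Ldha*, lactate dehydrogenase A, stood at 1802 and 1392 CPM at day 10 and 566 and 687 CPM at day 20 (log2 fold change -1.35, SE 0.117, adjusted p = 2.69e-06). The aldolase gene *Aldoa* stood at 2050.4 and 1362 CPM at day 10 and 599 and 738 CPM at day 20 (log2 fold change -1.35, SE 0.149, adjusted p = 1.92e-05). *Pkm*, pyruvate kinase, stood at 2585 and 2192 CPM at day 10 and 1378 and 1535 CPM at day 20 (log2 fold change -0.71, SE 0.0878, adjusted p = 5.10e-05). The HIF targets *Vegfa* (log2 fold change -1.61, SE 0.196, adjusted p = 4.61e-05) and *Bnip3* (log2 fold change -1.39, SE 0.192, adjusted p = 1.29e-04) fell by the looser rule. So did the glucose transporter *Slc2a1* (log2 fold change -1.60, SE 0.204, adjusted p = 6.80e-05). *Ndrg1* (log2 fold change -0.11, adjusted p = 0.833) and *Pfkfb4* (log2 fold change -0.33, adjusted p = 0.0998) passed neither rule. *Ndrg1* had day 20 values between its 2 day 10 values, with 244 and 83.1 CPM at day 10 and 132 and 171 CPM at day 20. Its log2 fold change was 0.89 without day 10 replicate 1 and -0.67 without day 10 replicate 2. Without day 10 replicate 1 the looser rule held for 21 genes of the list and the median was -1.0, and without day 20 replicate 1 it held for 20.

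More of the UB tip genes were lower than higher. Of 16 genes of UB progenitors and tips, 5 were called lower (31.2% against 2.08% of all genes described) and none higher. By the looser rule 10 were lower (62.5% against 19.2%) and 3 higher (18.8% against 15.4%). The called genes were the transcription factor genes *Lhx1* (log2 fold change -3.27, SE 0.408, adjusted p = 5.70e-05), *Sox8* (log2 fold change -2.52, SE 0.151, adjusted p = 9.52e-08) and *Tfap2c* (log2 fold change -2.09, SE 0.319, adjusted p = 2.83e-04). The others were the Wnt ligand genes *Wnt11* (log2 fold change -2.84, SE 0.233, adjusted p = 1.59e-06) and *Wnt6* (log2 fold change -2.69, SE 0.17, adjusted p = 1.52e-07). *Sox8* stood at 61.9 and 56.1 CPM at day 10 and 10.9 and 9.58 CPM at day 20. *Wnt6* stood at 40.5 and 30.6 CPM at day 10 and 5.7 and 5.22 CPM at day 20, and in neither gene did the days overlap. Against these, the GDNF co-receptor *Gfra1* (log2 fold change 0.68, adjusted p = 2.84e-04), its target *Etv5* (log2 fold change 0.94, adjusted p = 1.50e-05) and *Adamts18* (log2 fold change 0.91, adjusted p = 1.52e-04) were higher. *Etv5* stood at 287 and 355 CPM at day 10 and 638 and 591 CPM at day 20, with the days apart. *Ret* (log2 fold change 0.49, adjusted p = 0.246) and *Etv4* passed neither rule. With the 4 libraries alone (log2 fold change 0.55, adjusted p = 0.00935) and the 6 UB libraries (log2 fold change 0.53, adjusted p = 0.00576), *Ret* was higher by the looser rule. So it was without a filter (log2 fold change 0.50, adjusted p = 2.9e-08). Without day 10 replicate 1, *Tfap2c* fell by less than 4-fold (log2 fold change -1.44).

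Among genes that mark the UB lineage as a whole, none of 16 was called, and the median log2 fold change was -0.02. By the looser rule 5 were higher (31.2% against 15.4% of all genes described) and 6 lower (37.5% against 19.2%). *Epcam* stood at 746 and 842 CPM at day 10 and 809 and 853 CPM at day 20. *Gata3* stood at 331 and 319 CPM at day 10 and 206 and 226 CPM at day 20, so both days carried the epithelial and UB markers. *Calb1*, a calcium-binding protein of the UB and its derivatives, was higher (log2 fold change 1.27, adjusted p = 2.57e-07), as was *Pax8* (log2 fold change 1.02, adjusted p = 0.00331). *Elf5*, a factor of the UB trunk and its principal cell derivatives, was lower (log2 fold change -1.56, adjusted p = 8.01e-06).

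A supplementary list of the study, made from other libraries, gives genes with over 4-fold differences of primary UB tips from trunks. Of 525 tip genes measured, 23 were called higher and 27 lower (4.38% and 5.14%, against 1.95% and 2.08%), with a median log2 fold change of -0.25. Of 701 trunk genes, 37 were called higher and 59 lower (5.28% and 8.42%), with a median of -0.27. The median over all genes was -0.09. Tip genes called lower were *Ror2* (log2 fold change -4.22, SE 0.244, adjusted p = 6.74e-08), *Mycn* (log2 fold change -2.39, SE 0.311, adjusted p = 7.80e-05) and the Wnt antagonist *Sfrp2* (log2 fold change -2.02, SE 0.209, adjusted p = 1.17e-05). Tip genes called higher were the chemokine gene *Cxcl12* (log2 fold change 2.37, SE 0.26, adjusted p = 1.91e-05) and the growth factor gene *Fgf18* (log2 fold change 3.12, SE 0.385, adjusted p = 5.13e-05). The adhesion molecule *Nrcam* (log2 fold change 3.56, SE 0.252, adjusted p = 4.42e-07) and the protease *Pappa2* (log2 fold change 3.71, SE 0.184, adjusted p = 1.53e-08) were higher too. Trunk genes called lower were the signalling ligand *Shh* (log2 fold change -4.23, SE 0.306, adjusted p = 5.28e-07) and *Hif3a* (log2 fold change -4.80, SE 0.53, adjusted p = 1.99e-05). The matrix protein *Sparc* (log2 fold change -2.25, SE 0.142, adjusted p = 1.48e-07) and the keratin *Krt7* (log2 fold change -2.06, SE 0.217, adjusted p = 1.36e-05) were lower too. Trunk genes called higher were the EGF receptor ligand *Hbegf* (log2 fold change 3.78, SE 0.16, adjusted p = 3.62e-09) and the detoxifying enzymes *Ephx1* (log2 fold change 2.73, SE 0.0865, adjusted p = 2.68e-10) and *Gstm1* (log2 fold change 2.35, SE 0.106, adjusted p = 6.18e-09). Without day 10 replicate 1 the change was under 4-fold for *Mycn* (log2 fold change -1.74), *Sfrp2* (log2 fold change -1.63), *Sparc* (log2 fold change -1.94) and *Krt7* (log2 fold change -1.71). The same held for *Cxcl12* without day 10 replicate 2 (log2 fold change 1.89). *Krt7* was under 4-fold without day 20 replicate 1 as well (log2 fold change -1.69), and *Sfrp2* without day 20 replicate 2 (log2 fold change -1.90). These examples were chosen after their values were seen.

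**Figure D5:**
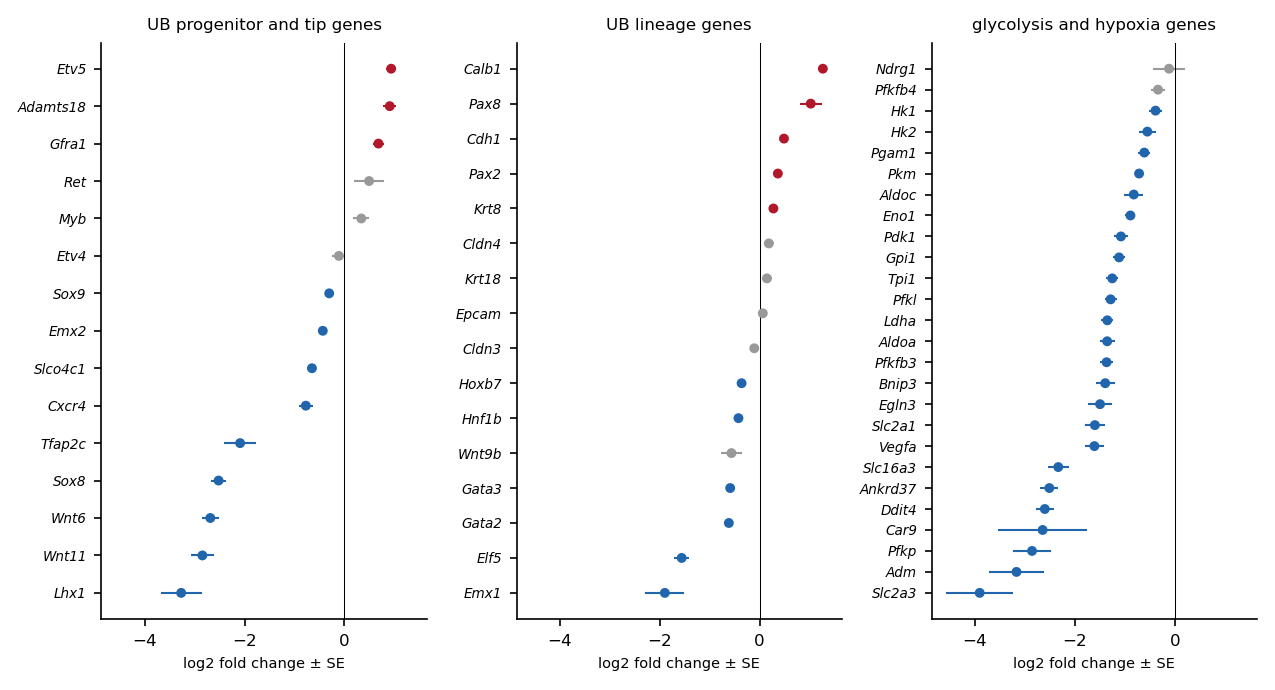
Log2 fold change of day 20 over day 10, with its SE as a bar, for the measured genes of 3 lists: 15 of the 16 UB progenitor and tip genes, 16 UB lineage genes and 26 glycolysis and hypoxia genes. Red and blue points are higher and lower by the looser rule and grey points passed neither; the tip genes range from -3.27 for *Lhx1* to 0.94 for *Etv5*, whereas the 26 glycolysis genes all lie below 0.

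Pathways that other components of the medium act on gave mixed counts. Of 14 beta-catenin targets and feedback genes, 1 was called higher, the secreted inhibitor *Wif1* (log2 fold change 2.58, SE 0.331, adjusted p = 6.94e-05), and 1 lower, *Ascl2*. Each is 7.14% of the list, against 1.95% higher and 2.08% lower of all genes described. The usual readout *Axin2* stood at 200.2 and 213 CPM at day 10 and 193 and 182 CPM at day 20 and was among the 8 that passed neither rule (log2 fold change -0.14, adjusted p = 0.373). Among 10 retinoic acid genes, 3 were called higher (30% against 1.95%) and 2 lower (20% against 2.08%). The looser rule gave 3 higher (30% against 15.4%) and 6 lower (60% against 19.2%). The degrading enzyme *Cyp26b1* was called lower, with 1014 and 643 CPM at day 10 and 87.4 and 90.7 CPM at day 20 (log2 fold change -3.22, SE 0.266, adjusted p = 1.68e-06). So was the binding protein *Crabp2* (log2 fold change -2.09, SE 0.358, adjusted p = 6.66e-04). The retinaldehyde dehydrogenase *Aldh1a1* was called higher, with 47 and 122 CPM at day 10 and 502 and 522 CPM at day 20 (log2 fold change 2.60, SE 0.286, adjusted p = 1.94e-05). Its relative *Aldh1a3*, with 326 and 255 CPM at day 10 and 1314 and 1368 CPM at day 20 (log2 fold change 2.21, SE 0.478, adjusted p = 0.00349), was called higher too. The call of *Aldh1a3* was lost without either day 20 library (adjusted p = 0.0202 and adjusted p = 0.024), and that of *Crabp2* without day 10 replicate 1 (log2 fold change -1.46) or day 20 replicate 1 (adjusted p = 0.0188).

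Of 18 genes of BMP and TGF-beta signalling, 2 were called higher (11.1% against 1.95% of all genes described), *Ccn2* among them. The ligand genes *Tgfb2* (log2 fold change -2.32, SE 0.166, adjusted p = 4.85e-07), *Bmp4* (log2 fold change -2.11, SE 0.289, adjusted p = 1.20e-04) and *Bmp2* (log2 fold change -2.05, SE 0.448, adjusted p = 0.00368) were called lower (16.7% of the list against 2.08%). The SMAD target *Id1* rose by the looser rule (log2 fold change 1.72, adjusted p = 2.17e-06), and 9 genes of the list passed neither rule. *Bmp2* lost its call without day 10 replicate 1 (log2 fold change -1.72) or either day 20 library (adjusted p = 0.0474 and adjusted p = 0.0367). *Bmp4* lost it without day 10 replicate 1 (log2 fold change -1.52). None of 9 JAK-STAT targets was called. By the looser rule 4 were lower (44.4% against 19.2% of all genes described) and 1 higher (11.1% against 15.4%). The 4 became 7 without day 10 replicate 2 and 2 without either day 20 library. *Socs3*, the feedback inhibitor of the pathway, passed neither rule (log2 fold change -0.56, adjusted p = 0.0552), but passed the looser one in several alternatives, such as DESeq2 (adjusted p = 0.0259) and the fit without day 10 replicate 2 (log2 fold change -0.90, adjusted p = 3.73e-06). The receptor *Osmr* was higher (log2 fold change 1.5, adjusted p = 2.01e-04).

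No gene of DNA replication and mitosis was called, but 19 of 32 were lower and none higher by the looser rule (59.4% against 19.2%), with a median of -0.37. *Top2a* stood at 545 and 586 CPM at day 10 and 329 and 314 CPM at day 20 (log2 fold change -0.82, SE 0.0894, adjusted p = 1.86e-05). *Mki67* stood at 666 and 759.9 CPM at day 10 and 516 and 481 CPM at day 20 (log2 fold change -0.52, SE 0.0969, adjusted p = 0.00132). The 19 became 10 without day 20 replicate 2. The other 13, among them the replication gene *Pcna* (log2 fold change 0.06, adjusted p = 0.559), passed neither rule. Of 20 cholesterol synthesis genes none was called, and 9 were lower (45% against 19.2%) and 3 higher (15% against 15.4%) by the looser rule. The 9 became 2 without day 10 replicate 1 or either day 20 library. Of 20 genes of the unfolded protein and amino acid responses, *Chac1* was called higher (log2 fold change 2.5, SE 0.255, adjusted p = 1.05e-05) and *Ddit4*, which is also in the glycolysis and hypoxia list, lower. Each is 5% of the list, against 1.95% higher and 2.08% lower of all genes described.

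Of 12 cartilage matrix genes, 9 were lower by the looser rule (75% against 19.2% of all genes described). The call at more than 4-fold held for 3 (25% against 2.08%). *Col2a1*, the main cartilage collagen, stood at 207 and 44.6 CPM at day 10 and 6.61 and 11.5 CPM at day 20 (log2 fold change -3.79, SE 0.547, adjusted p = 1.81e-04). *Col9a1* (log2 fold change -2.84, SE 0.179, adjusted p = 1.52e-07) and *Hapln1* (log2 fold change -4.13, SE 0.40, adjusted p = 6.38e-06) were the other called genes. Other matrix genes went both ways. Of 32 collagen, laminin and integrin genes, *Itgb4*, the integrin of hemidesmosomes, stood at 17 and 20.9 CPM at day 10 and 111 and 115 CPM at day 20 (log2 fold change 2.57, SE 0.103, adjusted p = 1.79e-09) and was called higher. So were *Tnc* (log2 fold change 3.54, adjusted p = 4.15e-04) and *Spp1* (log2 fold change 2.23, adjusted p = 0.00223; adjusted p = 0.0556 without day 20 replicate 2). *Col5a1* was called lower (log2 fold change -2.47, SE 0.206, adjusted p = 1.86e-06). Called higher were thus 9.38% of the 32 and lower 3.12%, against 1.95% and 2.08% of all genes described. The basement membrane laminin gene *Lama4* rose by the looser rule (log2 fold change 1.39, adjusted p = 4.28e-06). Of 28 guidance genes, 1 was called, *Slit2*, with 328 and 241 CPM at day 10 and 59.7 and 60.2 CPM at day 20 (log2 fold change -2.24, SE 0.117, adjusted p = 2.41e-08). That is 3.57% of the list, against 2.08% of all genes described. By the looser rule 16 were lower (57.1% against 19.2%), among them its receptor *Robo2* (log2 fold change -1.70, adjusted p = 2.23e-06). *Slit2* fell by less than 4-fold without day 10 replicate 1 (log2 fold change -1.98).

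*Hoxb9*, which passed neither rule, stood at 1027 and 915 CPM at day 10 and 879.9 and 896 CPM at day 20. Of 28 Hox genes measured, 5 were called higher (17.9% against 1.95% of all genes described) and none lower. By the looser rule 7 were higher (25% against 15.4%) and 9 lower (32.1% against 19.2%), with a median log2 fold change of -0.16. The 5 became 8 without day 10 replicate 1, 1 without day 10 replicate 2 or day 20 replicate 1, 2 without day 20 replicate 2, and 0 with the 4 libraries alone. Among the 5 were *Hoxd10* (log2 fold change 2.93, SE 0.398, adjusted p = 1.15e-04), *Hoxa3* (log2 fold change 2.16, adjusted p = 0.00178), *Hoxa4* (log2 fold change 2.08, adjusted p = 0.00733) and *Hoxa5* (log2 fold change 2.72, adjusted p = 0.00105). *Hoxa3* stood at 3.05 and 0.802 CPM at day 10 and 9.1 and 8.26 CPM at day 20, and in these 3 HoxA genes day 10 replicate 2 was below replicate 1. Without day 10 replicate 2 their log2 fold changes were under 4-fold (1.52, 1.38 and 1.98 in the same order). Without day 20 replicate 1 their adjusted p-values lay above 0.01, at 0.0179, 0.0607 and 0.0129. Of 20 interferon and antigen presentation genes, *H2-D1* (log2 fold change 2.36, SE 0.22, adjusted p = 4.65e-06) and *Cd74* (log2 fold change 2.87, SE 0.225, adjusted p = 1.09e-06) were called higher. These 2 are 10% of the list, against 1.95% of all genes described. The classical interferon targets *Ifit1* (log2 fold change -1.49, adjusted p = 0.0604) and *Irf1* (log2 fold change 0.13, adjusted p = 0.47) passed neither rule. Reads of *H2-D1* can be shared with near-identical H2 genes, so its value is uncertain, and its change was under 4-fold without day 10 replicate 2 (log2 fold change 1.96).

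Principal cell markers were called in both directions by the looser rule, and the other tubule markers that passed it were mostly higher. Of 14 intercalated cell markers, 6 were higher (42.9% against 15.4% of all genes described) and none lower (against 19.2%). Of 8 proximal tubule markers, 5 were higher (62.5%) and 1 lower (12.5%), and of 7 loop and distal markers 4 (57.1%) and 1 (14.3%). The 13 principal cell markers summed to 965 and 767 CPM at day 10 and to 432 and 526 CPM at day 20. This sum is weighted to abundant markers and counts *Gata3* (log2 fold change -0.59), which also marks the UB lineage. Higher by the looser rule were 5 (38.5% against 15.4%), among them *Aqp2* and *Kcnj1*, and 5 were lower (38.5% against 19.2%). Among the lower were the transcription factor *Tfcp2l1* (log2 fold change -1.33, adjusted p = 6.91e-05) and the water channel *Aqp4* (log2 fold change -1.40, adjusted p = 1.49e-04). A few markers that were near 0 at day 10 reached a few CPM or less at day 20. The principal cell water channel *Aqp2* stood at 0.238 and 0.255 CPM at day 10 and 0.728 and 6.87 CPM at day 20 (log2 fold change 3.64, SE 0.79, adjusted p = 0.00354). The potassium channel gene *Kcnj1* stood at 0 and 0 CPM at day 10 and 0.485 and 1.98 CPM at day 20. The proximal tubule gene *Kap* stood at 0 and 0.0729 CPM at day 10 and 0.789 and 6.34 CPM at day 20, and all of these levels are low. *Slc34a1*, the phosphate transporter of the proximal tubule, stood at 0 and 0.0365 CPM at day 10 and 0.789 and 1.59 CPM at day 20. The loop of Henle gene *Umod* stood at 0 and 0 CPM at day 10 and 0.303 and 1.92 CPM at day 20. In each of the 5 the second day 20 library held at least 2 times the level of the first. Without the second the calls were lost (adjusted p = 0.072 for *Aqp2*, adjusted p = 0.0226 for *Kcnj1*, adjusted p = 0.176 for *Kap*, adjusted p = 0.0161 for *Slc34a1* and adjusted p = 0.0899 for *Umod*). Over 47 genes with at least 100 CPM in the adult CD libraries and at most 3 counts in every day 5 and day 10 library, the median level in the 2 day 20 libraries was 0.0219% and 0.118% of that in the adult samples. Their part in these calls was not tested. The immediate early genes stood, by the median, at 35.7% and 45.8% of their adult levels in the 2 day 20 libraries.

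By list, 2 of 13 principal cell markers were called higher and 1 lower, *Elf3*, with 159 and 89.6 CPM at day 10 and 22.1 and 29.9 CPM at day 20 (log2 fold change -2.26, SE 0.219, adjusted p = 6.62e-06; log2 fold change -1.76 without day 10 replicate 1). 1 of 14 intercalated cell markers was called higher, the proton pump subunit *Atp6v1b1*, with 0.159 and 0.182 CPM at day 10 and 2.43 and 2.78 CPM at day 20. The defining factor *Foxi1* stayed under 1 CPM in all 4 libraries. 2 of 8 proximal tubule and 2 of 7 loop and distal markers were called higher. Called higher were 15.4% of principal cell and 7.14% of intercalated cell markers, against 1.95% of all genes described. The shares were 25% for the proximal tubule and 28.6% for the loop and distal markers. In the 2 day 20 libraries *Kap* stood at 0.0147% and 0.118% of its adult level and *Slc34a1* at 0.0499% and 0.1004%. *Umod* stood at 0.0147% and 0.093%, and *Kng2*, the other loop and distal call, at 0.496% and 0.69%. Of 11 urothelial and squamous markers, *Trp63*, the basal cell factor p63, was called higher, with 2.62 and 3.83 CPM at day 10 and 38 and 37.5 CPM at day 20 (log2 fold change 3.52, SE 0.182, adjusted p = 2.32e-08), and *Sprr1a* lower. Each is 9.09% of the list, against 1.95% higher and 2.08% lower of all genes described. *Krt5*, *Krt14* and *Upk2* did not reach 10 counts over the 4 libraries.

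Markers of cells other than UB epithelium were summed by list. The 11 stroma markers summed to 44.5 and 74.4 CPM at day 10 and 97.4 and 144 CPM at day 20. In the same order, the 7 nephron progenitor markers summed to 96.6 and 158 and to 237 and 230.3 CPM, and the 7 endothelial markers to 10.2 and 7.33 and to 5.82 and 5.29 CPM. The 3 leukocyte markers summed to 6.26 and 7.80 CPM at day 10 and 12.7 and 13.7 CPM at day 20 and the 6 neural markers to 8.72 and 14.9 and to 9.22 and 9.72 CPM. Their part in the changes was not tested. Of the stroma markers, *Acta2* was called higher (9.09% of the list against 1.95% of all genes described), with 0.0396 and 0.0365 CPM at day 10 and 2.43 and 2.71 CPM at day 20. The fibroblast marker *Pdgfra* stayed between 2.63 and 3.31 CPM and *Foxd1* did not reach 10 counts. Of the nephron progenitor markers, 3 were higher (42.9% against 15.4%) and 1 lower (14.3% against 19.2%) by the looser rule, with a median log2 fold change of 0.88. *Crym* was called lower, with 1.74 and 1.75 CPM at day 10 and 0.364 and 0.397 CPM at day 20 (log2 fold change -2.05, adjusted p = 7.38e-04), but not without day 20 replicate 1 (adjusted p = 0.0142) or day 20 replicate 2 (adjusted p = 0.01004). The defining *Six2* stayed under 0.4 CPM, and *Meox1* did not reach 10 counts. None of the endothelial, leukocyte and neural markers was called, and *Cldn5*, *Emcn* and *Erg* among the endothelial and *Sox10* among the neural markers did not reach 10 counts. Of 2 erythroid markers measured, *Klf1* was called lower, with 1.9 and 1.42 CPM at day 10 and 0.182 and 0.529 CPM at day 20 (log2 fold change -2.09, adjusted p = 0.00282; adjusted p = 0.052 without day 20 replicate 1). In bulk RNA, fewer cells of a type and less RNA per cell cannot be told apart.

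Over genes with a mean of at least 5 CPM, the median log2 change of a day 20 library against the day 10 mean was lowest on chromosome 7 (814 genes), at -0.13 and -0.08 in the 2 libraries. It was highest on chromosome 18 (293 genes), at 0.06 and 0.08. Scaled by library totals alone, the lowest and highest medians, each averaged over the 2 libraries, were -0.14 and 0.04.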

How the data were processed

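RNA-seq libraries of 10 mouse samples were examined, of which the 4 of UB organoids at days 10 and 20 were compared. Per the study's methods, the authors trimmed reads at both ends, aligned them with STAR to mm10 and quantified genes in Partek Flow with its E/M model. The submitters' processing notes name FastQC 0.11.8, cutadapt 2.5, Trimmomatic 0.36, STAR and edgeR 3.28.1. The labels and the methods name different RNA and library kits, and counting by strand was not stated, so reads of overlapping and antisense genes may not be told apart. The deposited table holds whole-number read counts per gene, RPKM values made by the authors and a scaled signal called TMM by the authors.

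The counts of all 10 libraries were fitted together with edgeR 4.0.16 (R 4.3.3): genes with at least 10 counts, TMM factors, group means, the quasi-likelihood test of day 20 against day 10 (prior count 1), and p-values adjusted by Benjamini-Hochberg over 24410 genes. Fold changes are log2, day 20 over day 10, and SEs are approximate, taken from the test statistic. CPM are counts scaled to the library's TMM-adjusted total. A floor of 3 counts per library gives the lower bound of a fold against libraries at or under it. Only the main edgeR fit was run on simulated counts with known changes. RPKM values were used only in tables of levels, and the TMM signal only in a limma 3.58.1 alternative. DESeq2 1.42.0 was the other alternative test. Gene positions came from GENCODE M21 (GRCm38), which holds 39151 of the table's 39273 identifiers, and promoters and the miRNA from RefSeq.

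Genes with values were, by rule, the 12 of each direction with the largest change among called genes with a mean of at least 5 CPM and no overlap between days, leaving out predicted gene models, and the called genes of 33 lists with examples of the rest. Members and lists were chosen with earlier results of these data known. The tip and trunk lists came from the study's supplement. The shared replicate numbers of the labels were not taken as pairs, since the labels tie them to no animal, batch or day. A few genes that entered the counts are not reported here by name.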

Additional observations from a re-analysis of the deposited data

Results flagged for a closer look

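The sum of 4 Y-linked genes, outside the autosomal comparison, was 229.8 and 259.3 CPM in the 2 day 20 libraries, against 0.317 and 0.875 CPM at day 10 and 0.085 and 0.041 CPM at day 5. It was singled out as a signal in genes that the comparison does not use, above the level of the day 10 libraries. CD organoids held 290.2 and 294.8 CPM. Among the 790 X-linked genes tested, 14 were called higher and 14 lower. Of the 19598 autosomal genes described, 383 (1.95%) were called higher and 408 (2.08%) lower.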

How the results depend on the processing

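Limits: 2 libraries a day, no statement that they are independent cultures, shallower day 20 libraries, and day 10 libraries that stand apart in the genes that fell. A count at day 20 under 3 reads, near 0.2 CPM, cannot be told from 0.

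Against 383 higher and 408 lower genes, the counts were 396 and 393 with RLE factors, 376 and 422 with library totals alone, 382 and 410 with upper-quartile factors, 452 and 534 without a filter, 342 and 362 with at least 1 CPM in 2 libraries, 252 and 273 with a prior count of 5, 342 and 343 with DESeq2, 367 and 516 with limma, 325 and 302 with the 6 UB libraries, 276 and 208 with the 4 libraries alone, and 378 and 356 with all libraries thinned to the shallowest. At more than 2-fold they were 853 and 1014, and with the looser rule 3019 and 3756. With 1 library left out they lay between 276 and 460 and between 224 and 544. A fit with the replicate number as a block gave 382 and 401, of which 370 and 394 were called without it. Deviations of same-numbered day 10 and day 20 libraries correlated at -0.209 over 10946 genes, and a block with the day 20 numbers crossed, added after seeing the data, gave 380 and 403. Other scalings gave a median log2 change of -0.12 to -0.05 and 47.1% to 50.2% of calls higher. The chromosome medians ran from -0.11 to 0.07, with a lowest of -0.084 with at least 20 CPM and extremes of -0.14 and 0.040 by library totals.

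Of 177 genes named, 126 stayed on the same side of their thresholds in every alternative. The 4 libraries alone took 25 genes below their threshold, the 6 UB libraries 16, and leaving out 1 library 5 to 19. Signs turned for 3 genes that passed neither rule: *Dusp6* (-0.018 to 0.34 with 1 library left out), *Foxi1* (-0.081 with limma and -1.31 to 1.20 with 1 library left out) and *Ndrg1* (0.043 with limma and -0.67 to 0.89 with 1 library left out). The replicate block turned no named call off and brought *Socs3* under the looser threshold (adjusted p = 0.0367), and the causes were not tested.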

Other observations

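Called genes also lay next to each other, a pattern looked for after the values were seen. Runs of at least 3 neighbouring called genes of one direction, each within 250 kb of the next, numbered 13 among the higher and 12 among the lower genes and held 91 genes. Overlapping and antisense genes were not set apart in these runs, some of the calls behind them were lost when 1 library was left out, and the runs were not tested.

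*Ren1*, the protease renin, stood at 1.07 and 2.84 CPM at day 10 and 15 and 12.8 CPM at day 20 (log2 fold change 2.78, adjusted p = 2.33e-05), and the splicing factor gene *Cwc22* at 44.5 and 42.7 CPM at day 10 and 409 and 411 CPM at day 20 (log2 fold change 3.23, adjusted p = 2.14e-11). Of processed pseudogenes, 28 higher (2.52%) and 24 lower (2.16%) of 1111 were called, against 1.95% and 2.08% of all genes described.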
